A study of Mus musculus with 6 samples.

Results

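Open chromatin at 10 genes of the ocular lens was examined in ATAC-seq libraries of the embryonic mouse retina, a tissue that borders the lens in the eye. The genes were taken by name from a list of lens markers: the α-crystallin genes Cryaa and Cryab, the β-crystallin genes Cryba1, Cryba2, Cryba4 and Crybb1, the γ-crystallin gene Crygs, the fibre genes Bfsp2 and Mip, and the transcription factor gene Foxe3. A peak belonged to one of them if its summit lay inside the gene, or if the closest end of any protein-coding gene was an end of that gene and lay within 100 kb. By this rule 23 of the 46780 regions found in the libraries, and 10 of 21887 protein-coding genes, were members.

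ATAC-seq uses the Tn5 transposase to cut accessible DNA and tag it for sequencing. The 6 libraries came from C57BL/6 embryos at E14.5, the retinal pair of 1 animal per library. The 3 SE/SE libraries came from animals homozygous for a mutant shadow enhancer of Atoh7, a gene needed for retinal ganglion cell formation, and the 3 wild-type libraries from Atoh7 +/+ animals. Whole retinas were dissociated and the protocol names no sorting step, so any other cell type left on the tissue could contribute. At the wild-type peak of the Atoh7 enhancer (chr10:63089099-63090927) the SE/SE libraries had 0, 0 and 0 peaks and the wild-type libraries 2, 2 and 2, so the peak lists carried the labelled genotypes. The SE/SE lists held 39115, 42722 and 44242 peaks and the wild-type lists 31340, 34797 and 27873, while SE/SE libraries had 15, 16 and 16 PCR cycles and wild-type libraries 17, 18 and 19, in an order not tied to the replicate numbers. List length, amplification and genotype therefore cannot be told apart. Read depth is unknown. In such bulk tissue, fewer cells with an open site and less opening per cell cannot be told apart either.

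Crystallins are the soluble proteins that fill lens fibre cells and give the lens its refractive power. The α-crystallins are small heat-shock proteins that act as chaperones, and the β- and γ-crystallins share a common fold and are structural. Their genes are switched on in the lens by factors such as Maf, Sox and Pax6 proteins, and some crystallins are also made at low levels in retina and other tissues.

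The promoters of the member genes had no peak in any single library, for the 9 with a promoter entry. The promoter table holds 300 bases, 250 before the start and 50 from it, for 9 of the 10 genes, all but Cryab. Of these 9, the number overlapped by a peak was 0 in each of the 3 SE/SE libraries and 0 in each of the 3 wild-type libraries. Over all 17492 protein-coding genes with an entry, the share was 58.9% to 59.8% in SE/SE libraries and 56.0% to 57.9% in wild-type libraries. For comparison, 23 of 26 further lens genes, described below, had an entry. Of these 23, 6 to 8 (26.1% to 34.8%) had a promoter peak, depending on the library. In the joint lists, 1 per genotype, 2 of the 9 promoters had a peak in SE/SE and 2 in wild type, those of Cryba2 and Foxe3, against 65.3% and 64.6% of all genes. By contrast, all 8 retinal progenitor and neurogenic genes with an entry (of 12 listed) and all 9 housekeeping genes with one (of 12 listed) had a peak over a promoter in each of the 6 libraries. Because housekeeping genes gave the same share as progenitor genes, these values cannot tell which tissue the libraries came from.

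**Figure D1:**
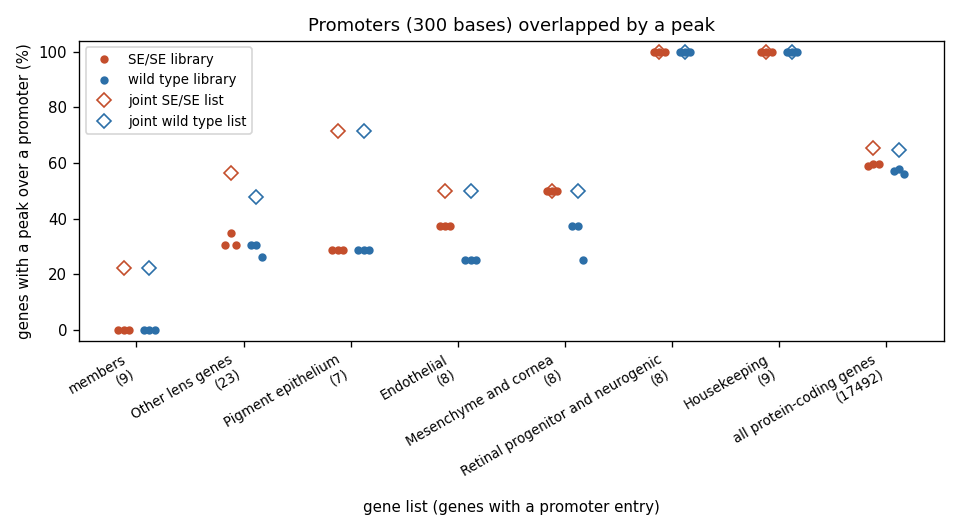
Share of genes (y axis, percent) with a peak over a RefSeq promoter of 300 bases, for each gene list (x axis, number of genes with an entry). Filled points are single libraries and open diamonds the joint lists, SE/SE in red left of wild type in blue; the lens members sit at 0 in all 6 libraries, and progenitor and housekeeping genes at 100.

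The following promoters from RefSeq (GRCm38.p6) are shown because the results turn on them: that of Cryaa, the α-crystallin gene that marks the lens, and that of Crybb1, both without a peak in any of the 8 lists; those of Cryba2 and Foxe3, which a joint peak reached; and that of Miat, a neighbouring non-coding gene with a peak in all libraries. They lie at chr17:31677681-31677980 (+ strand) for Cryaa, chr5:112255570-112255869 (+) for Crybb1, chr1:74893094-74893393 (-) for Cryba2, chr4:114926018-114926317 (-) for Foxe3 and chr5:112228899-112229198 (-) for Miat. Each reads 5′ to 3′ along the gene, and capitals mark matches to 6 short motifs on either strand: TGCTGAC (a Maf site), ACAATG (Sox), TGACTCA (AP-1), GAANNTTC (heat shock element), TATAAA (the core promoter box bound by TBP) and GGGCGG (GC box).
Cryaa: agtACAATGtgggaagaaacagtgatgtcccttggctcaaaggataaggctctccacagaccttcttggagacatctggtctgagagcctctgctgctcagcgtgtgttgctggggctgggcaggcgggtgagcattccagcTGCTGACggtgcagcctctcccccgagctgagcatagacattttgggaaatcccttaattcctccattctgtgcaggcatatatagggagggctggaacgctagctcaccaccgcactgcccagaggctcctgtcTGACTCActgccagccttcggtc
Crybb1: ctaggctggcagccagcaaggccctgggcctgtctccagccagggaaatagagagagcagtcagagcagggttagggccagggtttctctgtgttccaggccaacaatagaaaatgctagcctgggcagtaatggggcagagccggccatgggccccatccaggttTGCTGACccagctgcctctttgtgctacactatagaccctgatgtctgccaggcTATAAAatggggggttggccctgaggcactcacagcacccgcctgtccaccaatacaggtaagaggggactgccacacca
Cryba2: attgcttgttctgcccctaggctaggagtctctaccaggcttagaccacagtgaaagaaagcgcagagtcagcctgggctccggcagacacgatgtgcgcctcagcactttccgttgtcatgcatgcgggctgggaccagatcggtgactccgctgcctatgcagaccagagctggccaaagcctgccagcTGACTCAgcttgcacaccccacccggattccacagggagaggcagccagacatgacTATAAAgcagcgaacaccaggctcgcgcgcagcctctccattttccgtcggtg
Foxe3: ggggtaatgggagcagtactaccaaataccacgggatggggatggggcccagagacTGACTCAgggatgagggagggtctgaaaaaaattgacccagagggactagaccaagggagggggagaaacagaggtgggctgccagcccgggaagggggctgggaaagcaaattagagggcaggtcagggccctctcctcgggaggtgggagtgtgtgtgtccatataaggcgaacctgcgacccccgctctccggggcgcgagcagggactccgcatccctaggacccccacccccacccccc
Miat: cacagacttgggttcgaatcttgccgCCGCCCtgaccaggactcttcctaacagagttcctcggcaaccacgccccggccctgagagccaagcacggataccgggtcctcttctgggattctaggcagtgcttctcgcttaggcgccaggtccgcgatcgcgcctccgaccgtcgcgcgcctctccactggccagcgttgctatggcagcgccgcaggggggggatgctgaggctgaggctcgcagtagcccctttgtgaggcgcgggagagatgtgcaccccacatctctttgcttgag

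The Maf site was found in 4 of the 9 lens promoters, Cryaa, Cryba1, Cryba4 and Crybb1, and in 4.67% of all 32851 promoters in the table. In Cryaa the match ran from -108 to -102, counting the start base as 0, and in Crybb1 from -84 to -78. The Cryba1 match lay at -57 to -51, and Cryba4 had a pair of matches, from -182 to -176 and from -135 to -129. All of these are the forward sequence, and none shared bases with another of the 6 motifs. The AP-1 motif was found in Cryaa, Cryba2, Crygs and Foxe3 (4 of 9, against 5.20% of all promoters), the Sox motif in Cryaa and Crygs (2 of 9, against 12.6%), and the TBP box in Cryba1, Cryba2, Crybb1, Crygs and Mip (5 of 9, against 13.6%). The TATAAA match began at -23 in Cryba1, -30 in Crybb1 and -25 in Crygs. In Cryba2 and Mip it ran from -3 to 2, over the listed start base itself. The GC box was found in Mip alone (1 of 9, against 35.7%) and the heat shock element in none (0 of 9, against 7.86%). A match describes these letters and is not evidence that a factor binds there.

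The 23 regions were shared to different degrees, from a single library to all 6. A region here is a stretch where peaks of the 6 libraries overlap by 1 bp or more. In all 6 libraries were 8 regions (34.8%), against 52.1% of all regions and 40.1% of regions over 1 kb from a gene end, the class of 21 of the 23 (8 of 21, 38.1%). With a peak in all 3 SE/SE and in no wild-type library were 4 (17.4%), against 8.23% of all regions and 10.5% of the distant ones (4 of 21, 19.0%). The opposite pattern, in all 3 wild-type and no SE/SE library, was shown by 1 region (4.35%), against 0.0321% of all and 0.0424% of distant regions. A single library held 4 (17.4%), against 11.8% of all regions, and 6 had other patterns. Every one of the 23 regions overlapped a peak of the joint SE/SE list and one of the joint wild-type list. A region without a peak in the libraries of a genotype thus still had one in its joint list. How the joint lists combine the libraries is unknown.

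**Figure D2:**
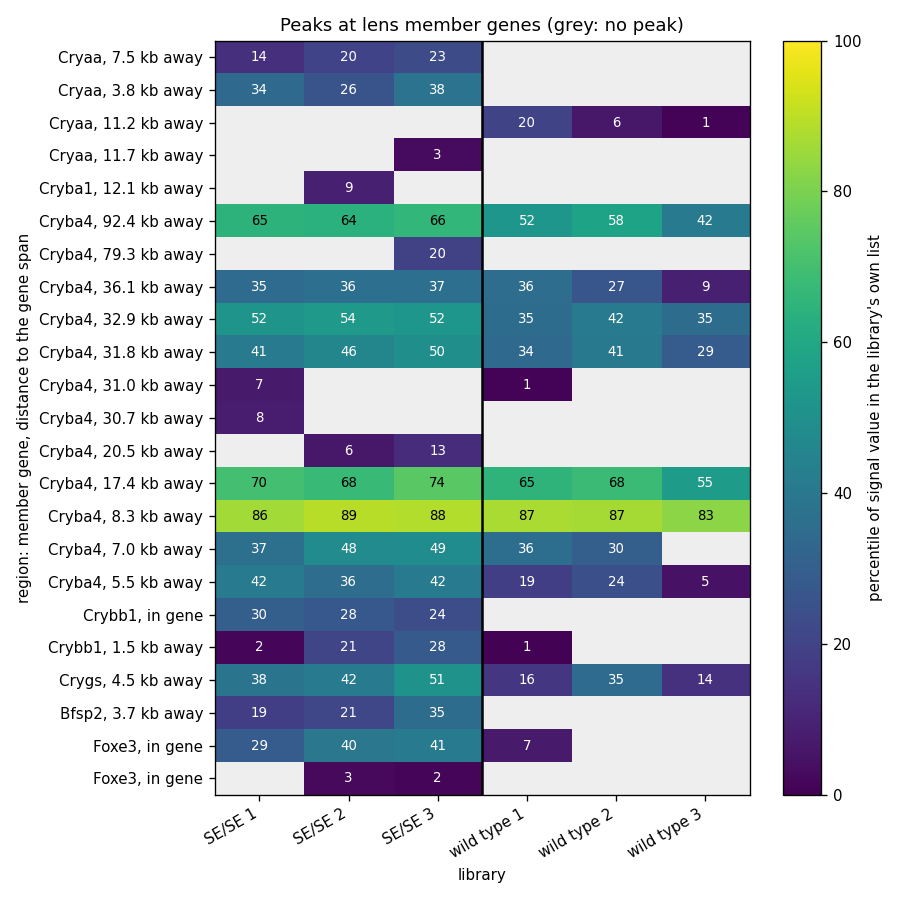
Each row is one of the 23 regions, named by its gene and its distance to the gene span, and each column a library, SE/SE left of wild type. Numbers and colour give the percentile of the peak's signal value in its own list, and grey means no peak; the shared rows lie mostly at Cryba4, and most other rows are SE/SE peaks of low percentile. The region inside Crybb1 also belongs to Cryba4.

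Member peaks were more numerous in SE/SE libraries, as all peaks were. The SE/SE libraries held 17, 18 and 19 member peaks and the wild-type libraries 13, 10 and 9, so the genotypes did not overlap. The SE/SE mean was 18.0 ± 1.0 and the wild-type mean 10.7 ± 2.08 (SD over 3 libraries each), a ratio of 1.69, while all peaks had a ratio of 1.34. Per 10000 peaks of the library, member peaks numbered 4.35, 4.21 and 4.29 in SE/SE and 4.15, 2.87 and 3.23 in wild type. The exact 95% binomial intervals, which cover counting error only, ran from 2.53 to 6.96 in SE/SE 1 and from 1.48 to 6.13 in wild type 3, wider than any difference between libraries. Every library's value lay inside the interval of each other library. The intervals treat peaks as independent draws, yet most member peaks of each library were assigned to Cryba4. They therefore do not test for a difference between libraries.

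With lists of equal length the difference shrank. When only the 27873 strongest peaks of each library by signal value were kept, SE/SE libraries had 12, 10 and 10 member peaks and wild-type libraries 10, 9 and 9 (10.7 ± 1.15 and 9.33 ± 0.577, SD, n = 3 each). The difference of the means was then 1.33 peaks, against 7.33 with all peaks. Most of the extra SE/SE peaks were thus among the weaker peaks of longer lists. The median member peak lay at percentile 34.9, 36.2 and 38.3 of the SE/SE lists and 34.1, 37.8 and 29.1 of the wild-type lists, below the middle of each list. In the full lists, the peaks assigned to Cryba4 alone were also left out, a choice made after the values were seen. SE/SE libraries then had 7, 9 and 9 member peaks and wild-type libraries 4, 2 and 2, a ratio of 3.13. That count was not repeated at equal list length.

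**Figure D3:**
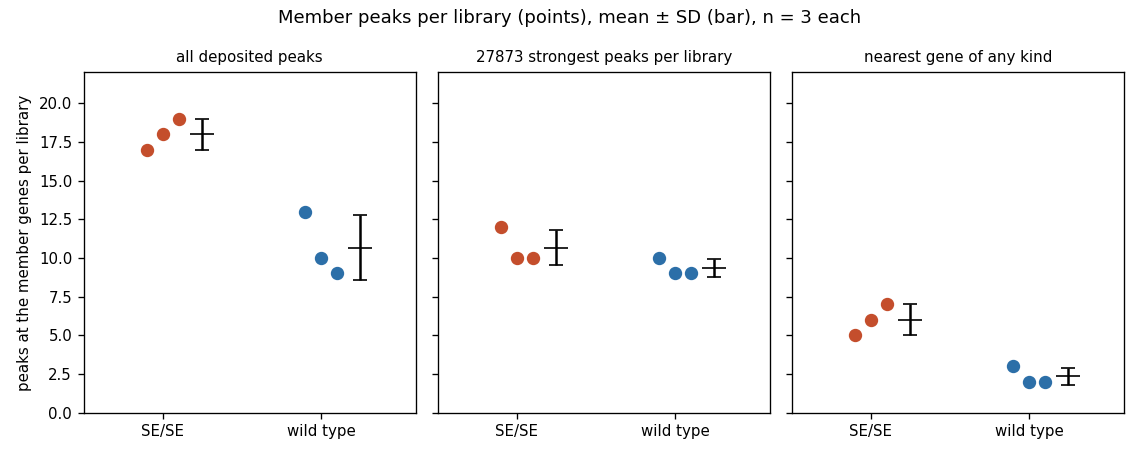
Peaks at the lens genes per library (y axis), SE/SE left of wild type, with mean ± SD over 3 libraries as a bar. Left, all peaks (17 to 19 in SE/SE, 9 to 13 in wild type); middle, the 27873 strongest peaks of each library (10 to 12 and 9 to 10); right, with non-coding genes competing as nearest gene (5 to 7 and 2 to 3).

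Gene by gene, 7 of the 10 had a peak in a library and 3 had none (Cryab, Cryba2 and Mip), against 27.6% of all protein-coding genes with none. In 4 of the 7 every SE/SE library had more peaks than every wild-type library, namely Cryaa, Cryba4, Crybb1 and Bfsp2. Over the 15844 protein-coding genes with a peak, 15.2% showed this and 0.852% the opposite. Cryba4 and Crybb1 are not independent cases. The region chr5:112265678-112265865, in 3 SE/SE and 0 wild-type libraries, counts for both. Where a summit inside a gene went to that gene only, the groups of Cryba4 were no longer apart (exact permutation p = 0.2). An exact two-sided permutation over the 20 assignments of 6 libraries gave these 4 genes p = 0.1, the smallest that 3 against 3 allows, and an adjusted p = 0.62 (Benjamini-Hochberg over all 15844 genes). Unadjusted p-values under 0.05 numbered 0, so no gene passed the threshold. With lists of equal length none of these 4 genes kept the separation (exact permutation p = 1 for each). Cryaa then had 1, 0 and 1 peaks in SE/SE and 1, 0 and 1 in wild type, Cryba4 had 9, 8 and 7 in SE/SE and 8, 8 and 7 in wild type, and Crybb1 had 1, 0 and 0 in SE/SE and 0, 0 and 0 in wild type. Bfsp2 was left with 0 in every library. Foxe3, with 1, 1 and 1 in SE/SE and 0, 0 and 0 in wild type, was then the only lens gene with separated groups (exact permutation p = 0.1). That separation depended on where the cut fell. SE/SE 1 kept peaks down to percentile 28.7, just under its Foxe3 peak at 29.0. Wild type 1 kept peaks down to percentile 11.1, so its Foxe3 peak at 7.42 was dropped. The share of all genes with separated groups at equal length was not computed.

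Among the α-crystallin genes, Cryaa (gene ID 12954, chr17:31677931-31681730 in GRCm38) had 4 regions, all outside the gene. Peaks assigned to Cryaa numbered 2, 2 and 3 in SE/SE and 1, 1 and 1 in wild type (2.33 ± 0.577 and 1.0 ± 0, SD, n = 3 each, exact permutation p = 0.1). The region at chr17:31670191-31670451, 7480 bp before the gene, had signal values of 46.3, 64.5 and 74.3 in SE/SE 1, 2 and 3, at percentiles 13.9, 20.3 and 23.4 of their lists, and no peak in wild type. The region at chr17:31685575-31685778, 3845 bp past the end, had 119.7, 84.3 and 142.03 in SE/SE, at percentiles 34.0, 25.9 and 38.3, and again none in wild type. Both peaks were below the middle of each SE/SE library list. In the joint lists both regions ranked higher, the first at percentile 76.8 in SE/SE and 71.8 in wild type, the second at 73.8 and 68.7.

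The wild-type-only region also lay at Cryaa, 11236 bp past its end (chr17:31692966-31693093). It had no peak in the 3 SE/SE libraries and signal values of 59.8, 29.4 and 21.3 in wild type 1, 2 and 3, at percentiles 20.5, 6.47 and 1.13, close to the lowest deposited value of 20 in the last. The joint SE/SE list nevertheless had a peak there, with a signal value of 551 (percentile 54.3), as did the joint wild-type list, with 775 (percentile 65.1). A peak of 24.6 (percentile 3.07) in SE/SE 3 alone, at chr17:31693396-31693501, lay close by. Over the start of Cryaa itself neither joint list had a peak. With lists of equal length none of the 4 Cryaa regions kept its pattern: the region 3845 bp away was left in 2 SE/SE libraries and none of wild type, the wild-type-only region in 2 wild-type libraries and none of SE/SE, and the other two in no library. At a signal value of at least 50, the wild-type-only pattern was lost as well.

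**Figure D4:**
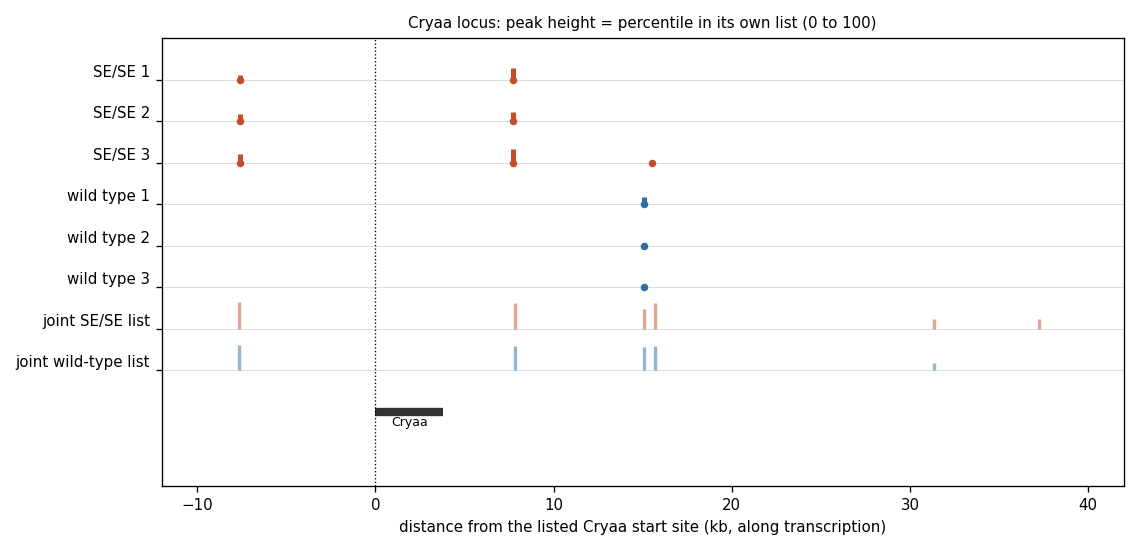
Peaks around Cryaa by distance from its start site in kb (x axis), 1 track per list with SE/SE above wild type, bar height giving the percentile in the list's own ranking and the dot the place of a peak. No track has a peak at the start (dotted line) or in the gene; SE/SE libraries have the 2 flanking regions and wild-type libraries the one past 15 kb.

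Cryab (gene ID 12955, chr9:50745951-50756636), a small heat-shock protein gene that is also active in muscle and heart, had 0 peaks in all 6 libraries. The joint lists had 1 each, chr9:50746230-50746660 in SE/SE (signal value 358, percentile 45.5) and chr9:50746263-50746596 in wild type (228, percentile 40.6). That peak lies in the Cryab span where 2310030G06Rik overlaps it.

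Among the β-crystallin genes, Cryba4 (gene ID 12959, chr5:112246492-112263625) had most of the regions, but nearly all of these were nearer to non-coding genes. Peaks assigned to Cryba4 numbered 11, 10 and 11 in SE/SE and 9, 8 and 7 in wild type (10.7 ± 0.577 and 8.0 ± 1.0, SD, n = 3 each, exact permutation p = 0.1), a ratio of 1.33. It had 13 regions, of which 12 lay past its 3′ end, outside the gene, and 7 of these 12 were in all 6 libraries.

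Each of those 12 regions was closer to a long non-coding RNA gene than to Cryba4. Of these, 6 had Miat as nearest gene of any kind, 3 Gm52821, 2 1700016B01Rik and 1 1700028D13Rik. Miat (also called Gomafu) is a nuclear long non-coding RNA known from developing retina and brain, and the region at its start, chr5:112228326-112229139, overlaps the promoter printed above. That region had signal values of 640, 583 and 793 in SE/SE and 452, 560 and 302 in wild type, at percentiles 70.2, 67.5 and 74.4 in SE/SE and 64.9, 68.4 and 55.0 in wild type. The strongest of the 23 regions, chr5:112237140-112238199 at Gm52821, lay at percentiles 86.1, 89.2 and 88.5 in SE/SE and 87.4, 86.5 and 82.8 in wild type, with signal values of 1294, 1655 and 1537 in SE/SE and 1134, 1228 and 926 in wild type. These were the only 2 of the 23 regions above percentile 50 in every library. The other 5 regions found in all libraries, the most distant one included, lay at percentiles 34.9 to 66.2 in SE/SE and 4.99 to 58.1 in wild type. The remaining 5 of the 12 were in 1 to 5 libraries, up to percentile 48.7 in SE/SE and 36.1 in wild type.

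With non-coding genes competing as nearest gene, SE/SE libraries kept 5, 6 and 7 member peaks and wild-type libraries 3, 2 and 2 (6.0 ± 1.0 and 2.33 ± 0.577, SD, n = 3 each), and 8 regions remained, of which 1 was in all 6 libraries.

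The most distant of the Cryba4 regions, chr5:112153670-112154093, was in all 6 libraries with its summit up to 92578 bp from the gene, at percentiles 64.6, 63.9 and 66.2 in SE/SE and 52.4, 58.1 and 41.6 in wild type. The first region beyond the 100 kb limit was also in all 6, with summits 135957 to 135984 bp away, at percentiles 45.5, 56.9 and 59.4 in SE/SE and 19.1, 29.5 and 13.9 in wild type.

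**Figure D5:**
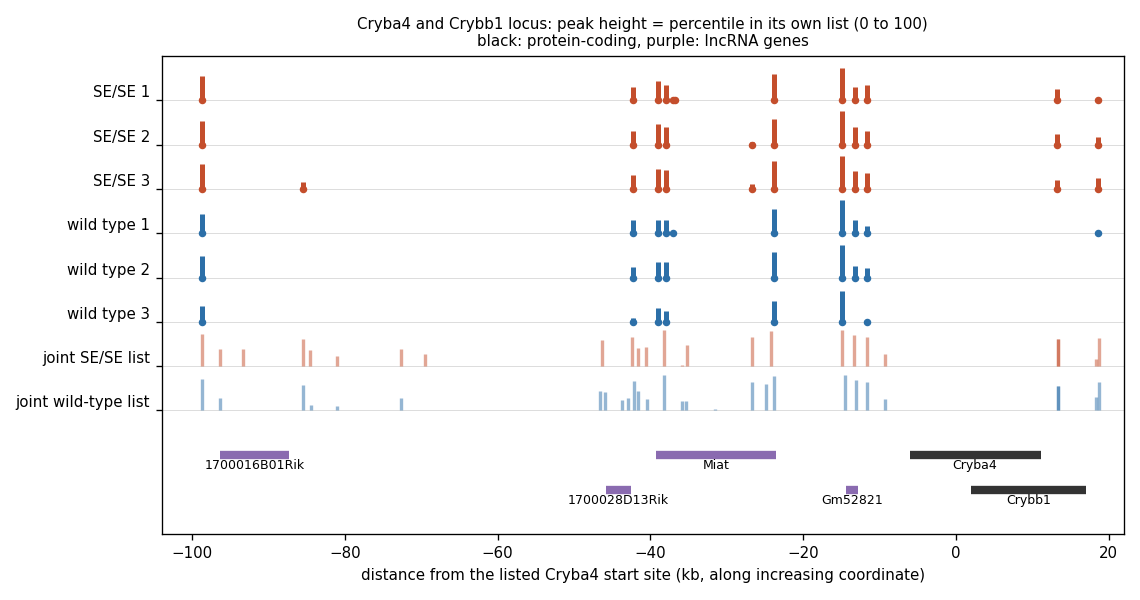
Peaks at Cryba4 and Crybb1 by distance from the listed Cryba4 start site in kb (x axis), 1 track per list with SE/SE above wild type, bar height giving the percentile in the list's own ranking. The peaks found in all libraries stand at or near Miat and the other lncRNA genes (purple), and the spans of the 2 crystallin genes (black) hold only a peak of the SE/SE libraries and of the joint lists.

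Crybb1 (gene ID 12960, chr5:112254563-112269585), whose span overlaps that of Cryba4 on the other strand, had 2, 2 and 2 peaks in SE/SE and 1, 0 and 0 in wild type (2.0 ± 0 and 0.333 ± 0.577, SD, n = 3 each, exact permutation p = 0.1). One region, chr5:112265678-112265865, lay inside the Crybb1 span and had its nearest gene end in Cryba4, so it counts for both. It had signal values of 101, 90.8 and 75.6 in SE/SE, at percentiles 30.2, 27.6 and 23.8, and no peak in wild type. The other, chr5:112271085-112271264, overlapped the non-coding gene Gm46941, 1500 bp past Crybb1, with percentiles of 1.67, 20.8 and 28.4 in SE/SE and 0.643 in wild type 1 alone.

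Cryba1 (gene ID 12957, chr11:77718614-77725293) had 1 region, chr11:77737397-77737555, nearer to the pseudogene Gm11191, with a peak in SE/SE 2 alone (signal value 35.0, percentile 8.84). Cryba2 (gene ID 12958, chr1:74889934-74898842) had none in the libraries but 4 peaks in the joint SE/SE and 3 in the joint wild-type list, the strongest at chr1:74892750-74893749 in SE/SE (signal value 1077, percentile 67.9) and chr1:74892787-74893730 in wild type (597, percentile 59.8), over the promoter printed above. Apart from the non-coding neighbours of Cryba4, the highest library percentile of a β-crystallin region was 30.2, at the region inside Crybb1.

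Crygs (gene ID 12970, chr16:22805203-22811410) had 1 region in all 6 libraries, at chr16:22800421-22800683, 4520 bp past the end of the gene. Its signal values were 145, 169 and 248 in SE/SE and 47.5, 119 and 44.7 in wild type, at percentiles 38.4, 41.6 and 50.8 in SE/SE and 15.9, 35.1 and 14.4 in wild type. It overlaps the non-coding gene Gm30416, and Crygs was the only lens gene apart from Cryba4 with a region in every library.

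Among fibre genes, Bfsp2 (gene ID 107993, chr9:103424924-103480405), which encodes phakinin of the beaded filaments, had 1 peak in each SE/SE library and 0 in each wild-type library. It lay at chr9:103420994-103421199, 3725 bp past the gene, with signal values of 58.8, 67.2 and 126 at percentiles 18.7, 21.2 and 35.4 in SE/SE. The joint lists had a peak there too, at percentile 74.0 in SE/SE and 66.6 in wild type. The gene of any kind nearest to this region was the non-coding 5830418P13Rik, 2486 to 2522 bp from the library summits. Mip (gene ID 17339, chr10:128225810-128231812), which encodes the fibre cell membrane protein aquaporin 0, had 0 assigned peaks in all 6 libraries and in both joint lists. A peak within 1 kb of its far end was present in all 6 libraries, at percentiles 73.4, 77.9 and 74.8 in SE/SE and 73.2, 73.2 and 70.3 in wild type, but its summit was nearer to an end of Timeless, a gene of the circadian clock and DNA replication.

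Foxe3 (gene ID 30923, chr4:114924443-114926067), a forkhead factor gene of the lens epithelium, was the only member with a peak inside the gene span in single libraries of both genotypes. Peaks assigned to Foxe3 numbered 1, 2 and 2 in SE/SE and 1, 0 and 0 in wild type (1.67 ± 0.577 and 0.333 ± 0.577, SD, n = 3 each), and the groups overlapped (exact permutation p = 0.2). The region at chr4:114925234-114925579 had signal values of 96.0, 156 and 161 in SE/SE 1, 2 and 3, at percentiles 29.0, 39.8 and 41.1, and 30.8 at percentile 7.42 in wild type 1. A second region, chr4:114925705-114925813, was in SE/SE 2 and 3 at percentiles 2.64 and 1.74. Both lie in one joint peak, which overlaps the transcribed end of the promoter window and stops short of the start base, chr4:114924936-114926027 in SE/SE (signal value 3754, percentile 85.5) and chr4:114924962-114926030 in wild type (2688, percentile 83.0). With lists of equal length the first Foxe3 region was the only member region in all 3 SE/SE and in 0 wild-type libraries. The cut to equal length removed its peak in wild type 1 and kept that of SE/SE 1 by a narrow margin. At equal length, the share of all regions in all 3 SE/SE and 0 wild-type libraries was not computed.

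The 4 regions of a single library all came from SE/SE libraries: 1 at Cryba1 in SE/SE 2 (percentile 8.84), 1 at Cryaa in SE/SE 3 (3.07), and 2 of the Cryba4 regions, in SE/SE 1 (7.73) and SE/SE 3 (19.8). Regions of a single library made up 11.8% of all regions, and their split by genotype was not computed. The SE/SE lists were also the longer ones. Wild type 1 was the only wild-type library with peaks at Foxe3 and Crybb1, at percentiles 7.42 and 0.643. Of the 10 lens genes, those with a peak summit no more than 1 kb from either end numbered 2, 2 and 2 in SE/SE and 2, 1 and 1 in wild type. Mip, beside Timeless, was one of them in each library, and Foxe3 the other; among all protein-coding genes 54.8% to 58.9% had one. Whether lens cells contributed to any library was not tested.

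A further 26 lens genes were listed for comparison. By the same 1 kb measure, 8 of them had a peak in all 6 libraries, Crygn, Bfsp1, Caprin2, Hsf4, Pitx3, Maf, Prox1 and Sox1, while 2 had one in some libraries and 16 in none. The peaks at Hsf4 were, as at Mip, mostly nearer to another gene, with 0 assigned to Hsf4 in every library but SE/SE 2. The 1 kb measure takes either end of the gene span and is not a measure of promoters. Crygn had no peak over its promoter in any library. Tdrd7, among the 16 with none, had a peak over a promoter in all 6, at percentiles 81.3 to 86.3. Bfsp1, Caprin2, Pitx3, Prox1 and Sox1 also had a peak over a promoter in all 6. The percentiles were 72.1 to 84.4 for Bfsp1, 92.8 to 95.4 for Caprin2 and 49.9 to 67.7 for Pitx3. They were 58.1 to 85.7 for Prox1 and 2.86 to 48.2 for Sox1. Maf, Prox1 and Sox1 are transcription factor genes that also act in neural tissue. Gja3, a fibre cell connexin gene, had such a peak in all 3 SE/SE libraries and in wild type 1 and 2, and Crygf had one in SE/SE 2 alone, at percentile 10.6. The fibre membrane gene Lim2 and the γ-crystallin genes Cryga, Crygb, Crygc, Crygd and Cryge had none in any library, although promoters of Cryge and Crygf had joint peaks, at percentiles 69.8 and 79.9 in SE/SE and 71.2 and 73.4 in wild type. Of the joint lists, that of SE/SE also had peaks at the Crygc and Crygd promoters (percentiles 17.5 and 11.0), and that of wild type had none there. Cryge and Crygf are close copies, and whether their peaks share reads was not tested.

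Markers of other non-neural cells are given by the same 1 kb measure, by which all protein-coding genes gave 58.1% to 58.9% in SE/SE and 54.8% to 56.9% in wild type. Pigment epithelium genes with such a peak numbered 5, 5 and 5 of 12 in SE/SE and 4, 4 and 4 in wild type, while 2 of 7 pigment epithelium promoters had a peak in each of the 6 libraries. Endothelial genes numbered 5, 4 and 5 of 12 in SE/SE and 2, 3 and 2 in wild type, and genes of mesenchyme and cornea 8, 9 and 9 of 12 in SE/SE and 5, 7 and 6 in wild type. These lists were not compared at equal list length, and their part in the lens values was not tested.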

How the data were processed

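Per the labels, the 6 libraries were made from E14.5 retinal pairs with about 100000 cells transposed and the equivalent of 50000 amplified. Listed in the submitters' processing notes, with no role or order, are the tools Genrich 0.5, bedtools 2.27.0, BWA, cutadapt and limma and the builds GRCm38 and mm10. The authors deposited 8 peak lists, 6 for single libraries and 2 joint lists named for a genotype; the pooling behind the joint lists, the read filters and any shift for the Tn5 cut are unknown here. The authors give −log10 p-values for every peak, beside a score and a signal value. No deposited signal value was under 20. Dividing the deposited signal value by peak width and multiplying by 1000, capped at 1000, gave the score to within 1 for 100% of peaks. Wider peaks can therefore rank higher, and, with no scaling between libraries known, the signal value only ranked peaks within a list; percentiles are mid-ranks, 0 lowest. Depth per library is unknown.

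Peaks on chromosomes 1 to 19, X and Y were assigned by summit to genes of the RefSeq table for GRCm38.p6. That table gives gene spans that include predicted transcripts, so a start site can lie inside a span, and promoters were therefore taken from the RefSeq promoter table. Presence per library is the replicate-level value; exact permutations covered all 15844 genes, with Benjamini-Hochberg adjustment. All 10 genes are named, with neighbours that share a region. The members and gene lists were chosen with earlier results of these data known. Scripts (Python 3.11.15, numpy 2.4.6, pandas 2.3.3, scipy 1.17.1, matplotlib 3.10.9) were tested on simulated data.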

Additional observations from a re-analysis of the deposited data

How the results depend on the processing

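Of 232 alternative values, 206 stayed within these limits (the same direction for a single gene, whatever its size, 1.5 times for counts, 1 SD for other values), 26 moved and 0 reversed. The kept values include 14 each for Cryab, Cryba2 and Mip, which had 0 peaks in every library and stayed at 0. They also include the replicate-block differences, which equal the main ones by arithmetic. The count of kept values is therefore no measure of robustness. For single genes, the SE/SE minus wild-type difference in peaks became 0 for Cryaa, Cryba1 and Bfsp2 with equal list lengths, for Cryba1 and Bfsp2 with non-coding genes included, and for Cryba1 at a signal value of at least 50 or without SE/SE replicate 2. For Crygs it was 0.67 at that signal value, against 0 with all peaks. No single gene could pass the threshold in any of them. Gene ends within 20 kb left 15 regions, 4 in all libraries. With non-coding genes included, the SE/SE minus wild-type difference in member peaks was 3.67, with 8 regions, 1 in all libraries. With equal list lengths the difference was 1.33, with 13 regions, 1 SE/SE only and 0 wild type only. With a signal value of at least 50, 5 regions were in all libraries and 0 were wild type only. Without the peaks nearest to Cryba4 alone, chosen after seeing the data, the difference was 5.67, with 11 regions, 1 in all libraries. By −log10 p the mean of the library medians was percentile 33.1 in SE/SE and 28.4 in wild type, and among peaks of the same distance class 44.0 and 45.1, against 36.5 and 33.7 by signal value over the whole list. Leaving out 1 library gave a difference of 6.5 to 8.5 member peaks, 4 to 6 SE/SE-only regions and 1 wild-type-only region. The 50 kb limit, the gene-first rule, the peak midpoint and the 50% overlap moved no value past these limits. The limits do not cover whether the groups of a gene stay apart. By the gene-first rule the Cryba4 difference was 1.67, against 2.67, and its groups were no longer apart (exact permutation p = 0.2). Nor were those of Cryaa at a signal value of at least 50 (exact permutation p = 0.2).

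The replicate numbers do not pair the libraries by any label, and deviations of same-numbered libraries over all regions correlated at 0.0178, 0.0114 and 0.0426 (Pearson, as a description). With the replicate block the difference in member peaks was 4, 8 and 10 in the pairs, with the same mean of 7.33, and no call changed; the exact sign-flip test of 3 pairs cannot give a p under 0.25. Depth is unknown, so a missing peak is not evidence of closed chromatin.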
